A study of Mus musculus with 42 samples.

Results

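The genes described here are 6 members of the Cyp2c family of cytochrome P450 enzymes in mouse liver: Cyp2c40, Cyp2c67, Cyp2c68, Cyp2c69, Cyp2c70 and Cyp2c44. They were found by symbol among the 55573 genes of the deposited count tables, and all 6 had enough reads to be tested in both arms. The genes were chosen by their measured response to corticosterone against vehicle, so the corticosterone against vehicle values below are a description and carry no test. RNA enriched for mRNA was sequenced from livers of male C57B6/J mice that received a vehicle, the glucocorticoid corticosterone (CORT), the antiandrogen enzalutamide (ENZA) or both agents. The acute arm held vehicle, CORT, ENZA and CORT+ENZA, and the chronic arm held vehicle, CORT and CORT+ENZA, with 6 mice in each group and 42 libraries in all. The sources used here state no dose, route, age or length of treatment, and chronic enzalutamide alone was not analysed here. The question put by this design is how an antiandrogen changes the response of the liver to a glucocorticoid.

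Cyp2c enzymes sit in the endoplasmic reticulum, take electrons from P450 oxidoreductase and oxidize fatty acids, steroids, bile acids and drugs. Cyp2c40 and its close relatives act on arachidonic acid, Cyp2c44 is an arachidonic acid epoxygenase, and Cyp2c70 makes the muricholic acids, the bile acids that set mice apart from humans. Liver expression of many Cyp2c genes in rodents differs between the sexes and depends on the pattern of growth hormone secretion, which acts through STAT5.

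All 6 genes lie on the minus strand of chromosome 19 (GRCm38) and have 9 exons each in the longest coding transcript of GENCODE M21. Cyp2c67 spans chr19:39608842-39649051, Cyp2c68 chr19:39688834-39741054, Cyp2c40 chr19:39767071-39812814 and Cyp2c69 chr19:39842814-39886799, next to one another. Cyp2c70 follows at chr19:40153353-40187333, and Cyp2c44, which the reference names Cyp2c23, lies apart at chr19:44005022-44029208. The identifiers in the files are ENSMUSG00000062624, ENSMUSG00000074882, ENSMUSG00000025004, ENSMUSG00000092008, ENSMUSG00000060613 and ENSMUSG00000025197, in the same order. The coding sequences of Cyp2c40, Cyp2c67, Cyp2c68 and Cyp2c69 were 96.5 to 98.1% identical to one another. Against these 4 genes Cyp2c70 was 65.2 to 65.9% identical and Cyp2c44 60.8 to 61.5%. The first 90 coding bases of Cyp2c69 and the bases at the same place in the other genes are shown because they make this split visible. Capitals mark bases that differ from Cyp2c69, and the stretch of Cyp2c40 begins at coding base 88 because its annotated start lies further upstream in the same frame.
Cyp2c69: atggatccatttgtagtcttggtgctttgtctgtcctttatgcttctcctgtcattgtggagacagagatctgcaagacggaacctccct
Cyp2c40: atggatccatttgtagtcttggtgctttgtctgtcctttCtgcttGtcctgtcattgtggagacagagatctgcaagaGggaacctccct
Cyp2c67: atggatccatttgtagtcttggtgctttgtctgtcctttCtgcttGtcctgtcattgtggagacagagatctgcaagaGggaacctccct
Cyp2c68: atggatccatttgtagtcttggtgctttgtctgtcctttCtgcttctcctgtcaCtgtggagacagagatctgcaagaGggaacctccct
Cyp2c70: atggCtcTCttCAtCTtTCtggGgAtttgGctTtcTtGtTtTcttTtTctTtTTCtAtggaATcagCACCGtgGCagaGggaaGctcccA
Cyp2c44: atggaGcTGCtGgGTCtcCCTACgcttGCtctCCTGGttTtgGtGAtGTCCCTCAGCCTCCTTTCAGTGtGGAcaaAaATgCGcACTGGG

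This likeness bears on every value of the first 4 genes, since a read from a shared stretch has no single origin. Of the 100-base stretches of the Cyp2c40 transcript, 44.1% also occurred in another gene's transcript, against 36.3% for Cyp2c69, 23.7% for Cyp2c67, 19.8% for Cyp2c68 and 0% for Cyp2c70 and Cyp2c44. The reads were pairs of 100 bases. Pairs that aligned to several places were not counted to any gene and accounted for 9.34 to 12.8% of acute and 18.6 to 22.7% of chronic read pairs. The split of reads among these 4 genes is therefore uncertain, and their summed counts are given beside the single genes. Summing does not bring back pairs left uncounted. The sum, and the shares of the genes with more shared stretches, can therefore be too low.

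The promoters of the 4 near-identical genes were compared because Cyp2c40 and Cyp2c69 followed each other closely across mice. RefSeq promoter sequences (GRCm38.p6, 250 bases before and 50 after the annotated start) were found for 5 of the 6 genes. Over the 220 bases that all 4 windows hold when lined up on a motif they share, Cyp2c40 and Cyp2c69 differed at 3 bases. Cyp2c67 and Cyp2c68 each differed from Cyp2c69 at 16 aligned bases, and Cyp2c68 also needed 4 gap bases. The 80 bases around the motif are shown for chr19:39886795-39886874 (Cyp2c69), chr19:39812810-39812889 (Cyp2c40), chr19:39649118-39649197 (Cyp2c67) and chr19:39741129-39741208 (Cyp2c68), minus strand, with capitals where a base differs from Cyp2c69.
Cyp2c69: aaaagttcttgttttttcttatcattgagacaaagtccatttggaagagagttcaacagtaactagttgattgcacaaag
Cyp2c40: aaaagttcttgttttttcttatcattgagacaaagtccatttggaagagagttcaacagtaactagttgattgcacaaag
Cyp2c67: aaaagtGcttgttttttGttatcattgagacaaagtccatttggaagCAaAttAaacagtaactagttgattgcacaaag
Cyp2c68: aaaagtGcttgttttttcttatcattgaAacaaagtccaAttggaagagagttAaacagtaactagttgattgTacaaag
Cyp2c40 and Cyp2c69 had the same letters over this stretch, where Cyp2c67 differed at 6 bases and Cyp2c68 at 5.

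Motifs were searched as exact letters on both strands, with the letters chosen after these promoters had been read. The letters CAAAGTCCA, a form of the site of the hepatocyte nuclear receptor HNF4, stood on the coding strand of all 5 promoters, between 45 and 125 bases before the annotated starts. They occurred in 0.475% of 32851 promoters of this length. The Cyp2c70 promoter, chr19:40187237-40187536 on the minus strand, is shown because it holds these letters, in capitals, although it is no close copy of the others.
Cyp2c70: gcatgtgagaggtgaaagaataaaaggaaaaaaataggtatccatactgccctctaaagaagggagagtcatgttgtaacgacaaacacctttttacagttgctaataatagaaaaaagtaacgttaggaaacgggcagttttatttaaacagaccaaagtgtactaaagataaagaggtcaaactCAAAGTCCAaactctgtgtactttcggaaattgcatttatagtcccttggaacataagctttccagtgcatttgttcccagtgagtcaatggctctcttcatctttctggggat
The C/EBP letters TTGCNNAA were found in 3 of the 5 promoters (Cyp2c67, Cyp2c40 and Cyp2c69) and in 10.8% of all promoters. The STAT letters TTCNNNGAA (8.30% of all promoters), the palindromic glucocorticoid response element (0.00913%), its shorter part AGAACA (19%), which lies within that element, and an HNF1 site (0.399%) were in none of the 5 windows. Such matches describe letters in these windows only, and 4 of the 5 promoters are near copies. Hnf4a itself, which codes for an HNF4 receptor, was higher under chronic CORT than under vehicle (log2 fold change 0.27 ± 0.09 SE, edgeR adjusted p = 0.0467). It fell when ENZA was added (log2 fold change -0.31 ± 0.09 SE, edgeR adjusted p = 0.0323). The 5 genes with the letters had log2 fold changes there of -3.66 (Cyp2c40), -4.60 (Cyp2c69), -0.48 (Cyp2c68), 0.04 (Cyp2c67) and 0.52 (Cyp2c70). A link between Hnf4a or these letters and the levels of the genes was not tested.

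Gene counts came to 18674151 to 20464521 per acute library and 15381724 to 19581723 per chronic library. Levels below are CPM, counts scaled to a common library size with TMM factors, set within each arm. RNA was extracted with a Qiagen kit in the acute arm and a Macherey-Nagel kit in the chronic arm, so kit and duration cannot be told apart, and levels are set across arms without a test. The tissue label matched its markers: the 7 hepatocyte markers summed to 61118 CPM or more in every library. Fkbp5, a classical target of the glucocorticoid receptor, rose with CORT by 1.26 ± 0.24 (SE) on the log2 scale in the acute arm and 2.89 ± 0.40 in the chronic arm (edgeR adjusted p = 0.00595 and 0.000108). Acute vehicle L19A with acute CORT+ENZA L36A, and chronic vehicle 11 with chronic CORT+ENZA 18, were left out as pairs because earlier results had raised doubts about them, and this changed no call of the 6 genes or of the sum.

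Set per kilobase of transcript in acute vehicle mice, Cyp2c70 (275 ± 64.5 SD, n = 6) and Cyp2c44 (269 ± 47.2) were the most abundant members and did not differ beyond their spread. They were followed by Cyp2c68 (122 ± 27.8) and Cyp2c67 (90.5 ± 18.0), whose mice overlapped, and by Cyp2c40 (22.0 ± 8.91) and Cyp2c69 (12.7 ± 5.54), which also overlapped. In chronic vehicle mice the order was Cyp2c70 (271 ± 64.9 CPM per kilobase), Cyp2c44 (147 ± 42.6), Cyp2c67 (142 ± 32.4), Cyp2c68 (88.1 ± 20.1), Cyp2c40 (1.83 ± 0.94) and Cyp2c69 (0.669 ± 0.438). Cyp2c44 and Cyp2c67 did not differ beyond their spread there. Scaling by length does not correct for pairs left uncounted, which can lower the 4 near-identical genes in these orders. Cyp2c40 and Cyp2c69 thus had a far lower level in chronic than in acute vehicle mice, whereas Cyp2c70 had about the same level in the arms. Pairs left uncounted as multiply aligned were more frequent in the chronic arm, and their part in this difference was not tested. They bear on Cyp2c40 and Cyp2c69 more than on Cyp2c70, which shares no 100-base stretch with another gene.

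**Figure D1:**
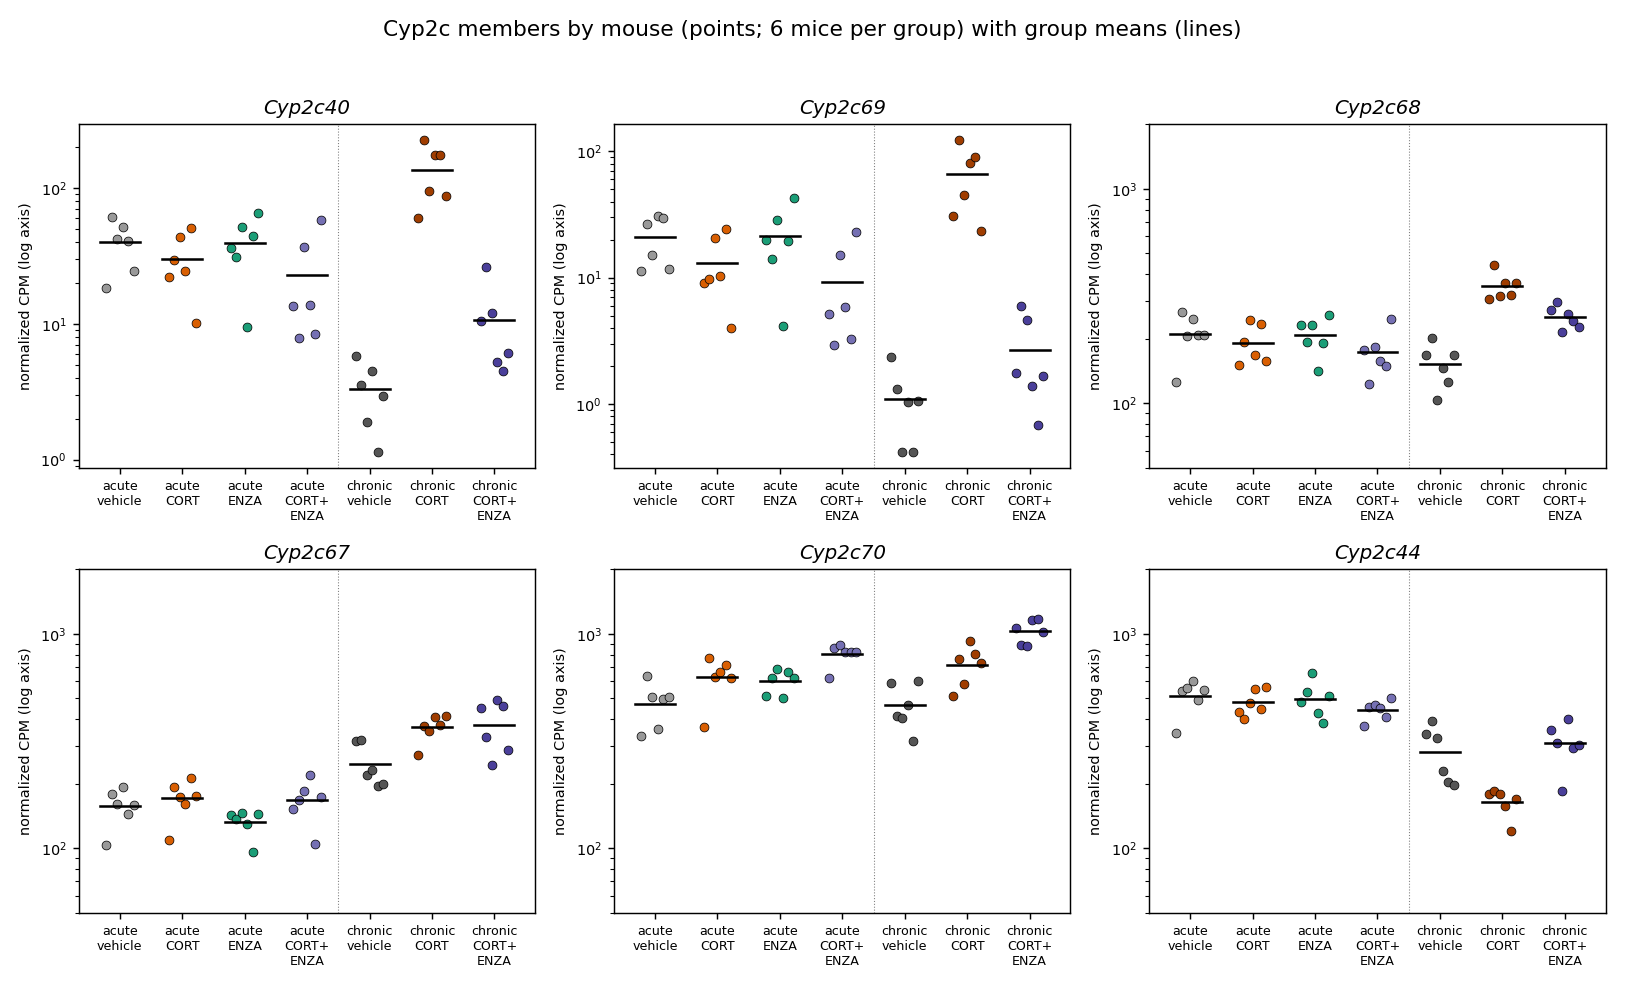
Normalized CPM of the 6 genes in each mouse on log axes, 6 mice per group, with group means as lines and a dotted line between the acute and chronic arms. Cyp2c40 and Cyp2c69 were highest in the 6 chronic CORT mice, up to 225 and 123 CPM, while Cyp2c44 had its lowest group mean there.

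Cyp2c40 and Cyp2c69, fatty acid oxidizing P450s of the cluster, had the widest range. In chronic vehicle mice the level of Cyp2c40 had a lowest value of 1.14, a median of 3.22 and a highest of 5.75 CPM. The chronic CORT mice had 59.7, 134 and 225 CPM. In chronic CORT+ENZA mice the values were 4.49, 8.30 and 26.0 CPM. Every CORT mouse thus lay above every mouse of the other chronic groups, while CORT+ENZA and vehicle mice overlapped. For Cyp2c69 the lowest, median and highest values were 0.416, 1.05 and 2.37 CPM with vehicle, 23.3, 62.9 and 123 CPM with CORT and 0.686, 1.71 and 5.99 CPM with CORT+ENZA, with the same order of the groups. The chronic vehicle values of Cyp2c69 rest on 7 to 35 read pairs per library.

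As a description, the level of Cyp2c40 was 41.5 times that of vehicle in chronic CORT mice (95% interval 20.5 to 83.9) and that of Cyp2c69 60.4 times (27.3 to 134). In that comparison 18.3% of 13099 genes tested were called, and 8.43% of genes had groups that did not overlap. When ENZA was added to chronic CORT, Cyp2c40 fell by 3.66 ± 0.46 (SE) on the log2 scale, or by 92.1% (edgeR adjusted p = 6.55e-05). Cyp2c69 fell by 4.60 ± 0.52, or by 95.9% (edgeR adjusted p = 2.35e-05). This test shares the CORT mice with the comparison that chose the genes. So do the tests below of ENZA added to CORT for the other members, the sum and the shares. Of all genes, 11.8% were called with ENZA added to chronic CORT, 4.86% as lower, and 6.21% had groups that did not overlap. Both calls stood with every library left out in turn.

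Cyp2c68 had the same direction at a smaller size. Its lowest, median and highest levels were 103, 157 and 201 CPM with chronic vehicle, 306, 343 and 441 CPM with CORT and 216, 252 and 295 CPM with CORT+ENZA. The 3 groups did not overlap. Among all genes tested, 8.43% had no overlap for CORT against vehicle, 6.21% for CORT+ENZA against CORT and 8.08% for CORT+ENZA against vehicle. The ratio of CORT to vehicle was 2.32 (95% interval 1.93 to 2.78). Adding ENZA to CORT lowered Cyp2c68 by 28.2% (log2 fold change -0.48 ± 0.13 SE, edgeR adjusted p = 0.0255), a call that was lost without CORT mouse 2 (adjusted p = 0.0604). Cyp2c67 had 195, 225 and 319 CPM with vehicle, 274, 374 and 415 CPM with CORT and 244, 391 and 489 CPM with CORT+ENZA, and all 3 groups overlapped. Its CORT to vehicle ratio was 1.49 (1.18 to 1.89). With ENZA added it did not pass the test: the log2 fold change was 0.04 ± 0.17, with a 95% interval from -0.30 to 0.38 and an edgeR adjusted p of 0.917.

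The sum over the 4 genes is less exposed to how counted reads were split, though not to the loss of uncounted pairs. Its lowest, median and highest levels were 322, 377 and 525 CPM with chronic vehicle, 670, 927 and 1161 CPM with CORT and 477, 683 and 757 CPM with CORT+ENZA. The CORT mice lay above all vehicle mice and overlapped the CORT+ENZA mice. The sum was 2.28 times that of vehicle with CORT (95% interval 1.85 to 2.82) and 1.60 times with CORT+ENZA (1.30 to 1.97). It fell by 30.1% with ENZA added to CORT (log2 fold change -0.52 ± 0.15 SE, edgeR adjusted p = 0.0338). That call was lost in 6 of 12 fits with a library left out, those without CORT mice 2, 26 or 27 or CORT+ENZA mice 6, 17 or 18, with adjusted p between 0.055 and 0.078 there. In bulk RNA, fewer cells that express a gene and less RNA per cell cannot be told apart.

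**Figure D2:**
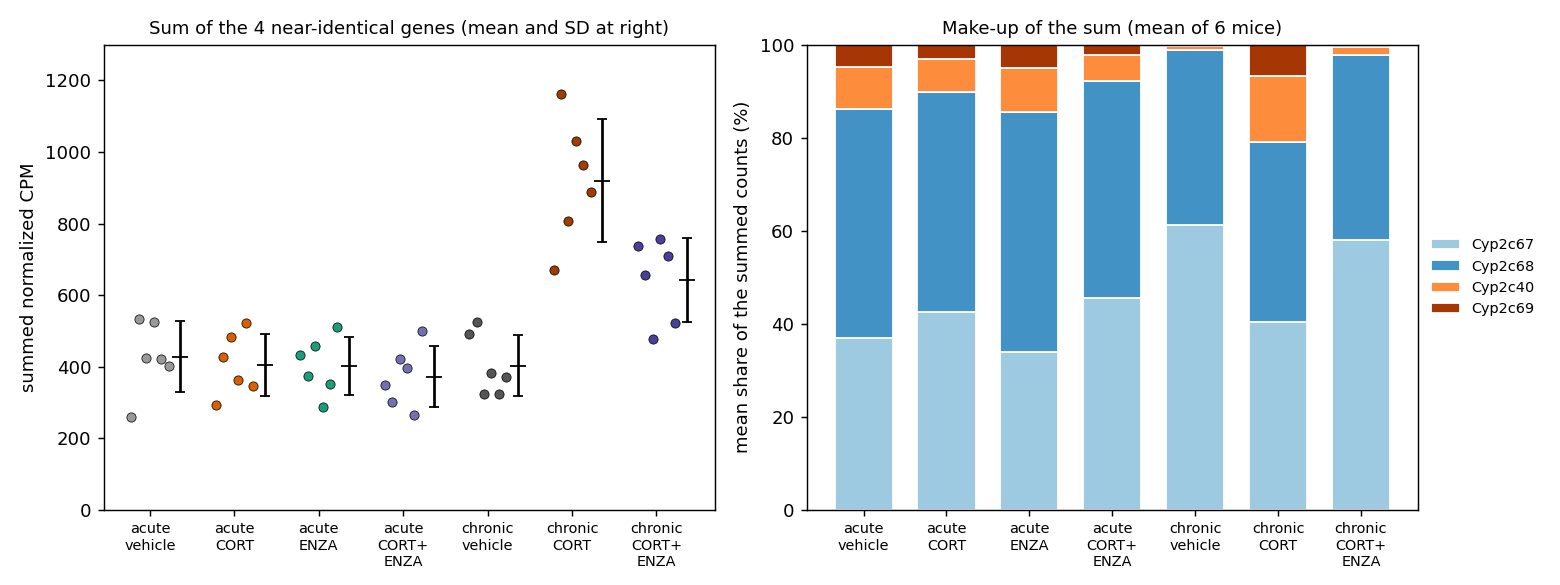
Left, summed normalized CPM of Cyp2c40, Cyp2c67, Cyp2c68 and Cyp2c69 in each mouse, with the mean and SD of 6 mice beside the points. Right, mean share of each gene in the summed counts. Cyp2c40 and Cyp2c69 together made up 20.9% of the sum in chronic CORT mice, 1.05% in chronic vehicle and 2.18% in chronic CORT+ENZA mice.

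The make-up of the cluster also differed. Cyp2c40 and Cyp2c69 together held 1.05 ± 0.44% (SD, n = 6) of its counts in chronic vehicle mice, 20.9 ± 7.51% in CORT mice and 2.18 ± 1.64% in CORT+ENZA mice. The CORT mice ranged from 12.4 to 29.9% and lay above the highest CORT+ENZA mouse, at 4.87%. Adding ENZA lowered the joint share by 18.7 percentage points (two-sided exact permutation p = 0.00216, the smallest that 6 against 6 mice can give, adjusted p = 0.0108 over 20 tests of shares). Its CORT mice are those of the comparison that chose the genes, so this p is no independent support. The share of Cyp2c67 rose by 17.5 points, from 40.4 ± 4.96% to 57.9 ± 6.70% (exact permutation adjusted p = 0.0108). The 4 shares add up to the whole, so this rise is the counterpart of the fall in Cyp2c40 and Cyp2c69 and no separate result: the level of Cyp2c67 itself did not pass, as given above. That of Cyp2c68 was 38.7 ± 4.32% and 39.9 ± 5.31% and did not pass (exact permutation p = 0.669). In the acute arm the joint share was 13.8 ± 3.08% with vehicle, 10.2 ± 3.60% with CORT, 14.4 ± 5.83% with ENZA and 7.76 ± 5.16% with CORT+ENZA. No acute test of shares passed after adjustment, the smallest adjusted p by the exact permutation test being 0.0989.

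In the acute arm the groups overlapped for Cyp2c40 and Cyp2c69. Cyp2c40 had a lowest, median and highest level of 18.3, 41.3 and 61.3 CPM with acute vehicle, 10.1, 27.1 and 50.4 CPM with CORT, 9.55, 40.3 and 64.9 CPM with ENZA and 7.89, 13.6 and 57.8 CPM with CORT+ENZA. In the CORT+ENZA group 4 mice lay at 7.89 to 13.7 CPM, below every vehicle mouse, and mice L18A and L36A at 36.4 and 57.8 CPM. Cyp2c69 had 11.2, 20.9 and 31 CPM with vehicle, 4.02, 10.1 and 24.1 CPM with CORT, 4.14, 19.7 and 43.0 CPM with ENZA and 2.91, 5.49 and 22.9 CPM with CORT+ENZA, where 4 of 6 mice again lay below every vehicle mouse. As a description, the ratio of acute CORT+ENZA to vehicle was 0.578 for Cyp2c40 (95% interval 0.292 to 1.14) and 0.440 for Cyp2c69 (0.209 to 0.925). The acute CORT to vehicle ratio was 0.756 for Cyp2c40 (95% interval 0.385 to 1.49), 0.623 for Cyp2c69 (0.301 to 1.29), 0.910 for Cyp2c68 (0.719 to 1.15), 1.09 for Cyp2c67 (0.877 to 1.36) and 0.948 for the sum (0.749 to 1.20), beside 1.62% of 13733 genes called.

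None of the 6 genes was called by edgeR for acute ENZA against vehicle, where 1.31% of genes were called, for acute CORT+ENZA against CORT (0.175%) or for acute CORT+ENZA against ENZA (1.81%). DESeq2 also called 0 of 6 in each. At an unadjusted p under 0.05 edgeR gave 1, 1 and 2 of the 6, which were Cyp2c70 in each and also Cyp2c69 in the last. Over all 13733 genes tested, 2002, 696 and 2050 were under that unadjusted p. With ENZA alone the log2 fold change was -0.01 ± 0.49 (SE) for Cyp2c40, 0.04 ± 0.53 for Cyp2c69, -0.02 ± 0.17 for Cyp2c68 and -0.24 ± 0.16 for Cyp2c67. The 95% interval for Cyp2c40, -0.98 to 0.96, leaves room for a change of about 2-fold in either direction. ENZA alone was set against the vehicle mice of the comparison that chose the genes, so this test is not free of that choice. With CORT+ENZA against ENZA, Cyp2c69 had a log2 fold change of -1.23 ± 0.55 (edgeR adjusted p = 0.287) and Cyp2c40 of -0.78 ± 0.50 (edgeR adjusted p = 0.511).

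**Figure D3:**
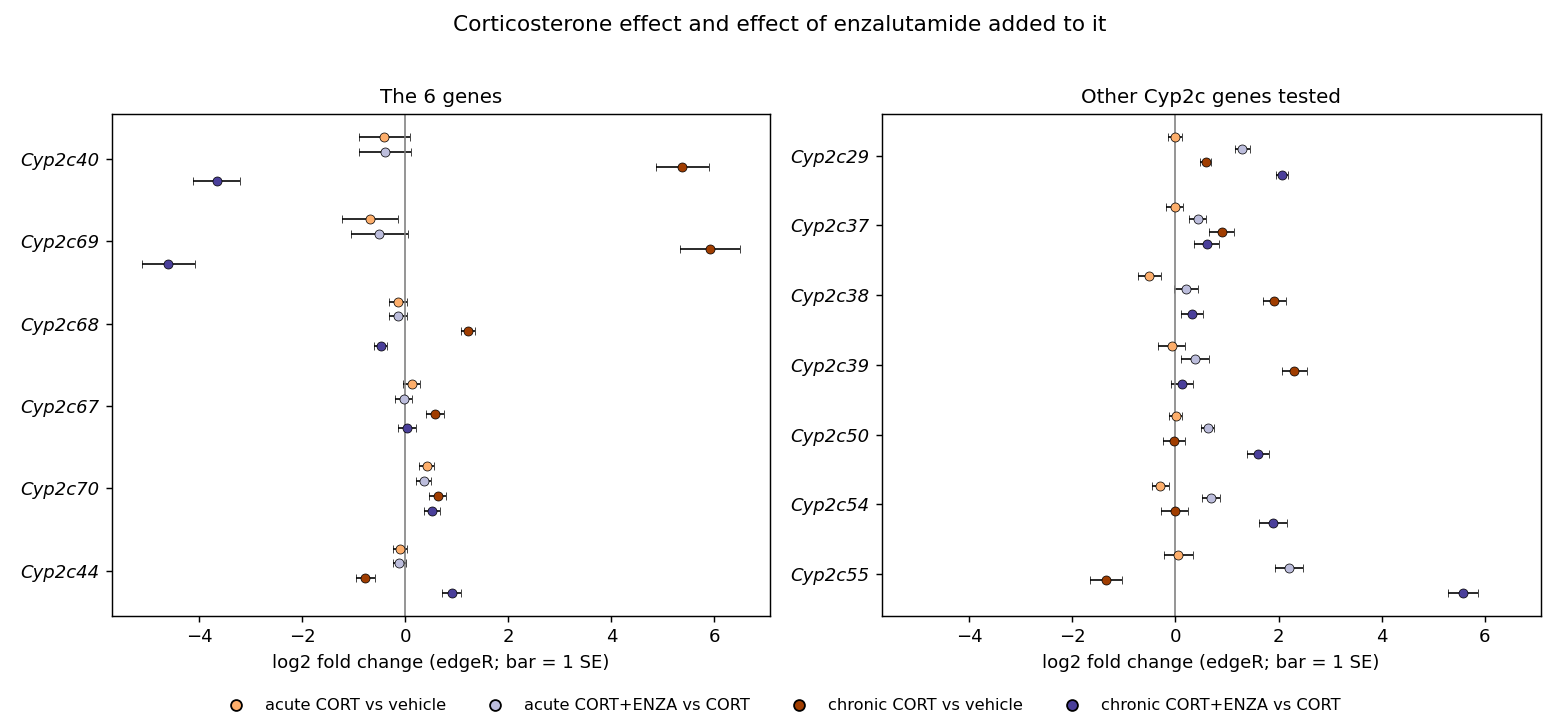
Log2 fold changes with 1 SE (edgeR, 6 mice per group) for CORT against vehicle and CORT+ENZA against CORT in each arm, for the 6 genes on the left and the other 7 Cyp2c genes tested on the right. Added ENZA in the chronic arm gave -3.66 for Cyp2c40 and -4.60 for Cyp2c69, against 2.06 for Cyp2c29 and 5.58 for Cyp2c55.

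The effect of ENZA added to CORT was then compared between the arms in 1 model of all 42 libraries. It was lower in the chronic than in the acute arm by a log2 difference of -3.31 ± 0.70 (SE) for Cyp2c40 (edgeR adjusted p = 0.00693) and -4.13 ± 0.78 for Cyp2c69 (edgeR adjusted p = 0.00189). For Cyp2c44 it was higher by 0.99 ± 0.23 (edgeR adjusted p = 0.0144). These 3 of 6 genes were called beside 1.27% of 14138 genes, and each call stood with any library left out. The contrast holds the CORT mice of both arms, on which the genes were chosen, so these calls are no independent support. The difference did not pass for Cyp2c68 (-0.36 ± 0.23, edgeR adjusted p = 0.524), Cyp2c67 (0.05 ± 0.25, 0.968), Cyp2c70 (0.13 ± 0.22, 0.870) or the sum (-0.42 ± 0.25, 0.470). As a description, the CORT effect itself was larger in the chronic than in the acute arm by a log2 difference of 5.81 ± 0.75 for Cyp2c40, 6.63 ± 0.85 for Cyp2c69 and 1.38 ± 0.23 for Cyp2c68, beside 6.17% of genes called. Since kit and duration cannot be told apart, these differences belong to the arms as sampled.

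Cyp2c70, the enzyme that makes muricholic acids, had its highest levels where CORT and ENZA were given together. Its lowest, median and highest levels were 317, 442 and 601 CPM with chronic vehicle, 513, 748 and 925 CPM with CORT and 875, 1046 and 1174 CPM with CORT+ENZA. CORT+ENZA mice lay above all vehicle mice and overlapped the CORT mice. Between CORT+ENZA and vehicle, 8.08% of all genes tested had groups that did not overlap, 4.73% as higher. The CORT to vehicle ratio was 1.54 (95% interval 1.25 to 1.91) and the CORT+ENZA to vehicle ratio 2.21 (1.79 to 2.74). Cyp2c70 rose by 43.3% with ENZA added to chronic CORT (log2 fold change 0.52 ± 0.16 SE, edgeR adjusted p = 0.0362), beside 6.99% of genes called as higher. The call was lost in 7 of 12 fits with a library left out, those without CORT mice 1, 3 or 25 or CORT+ENZA mice 4, 5, 6 or 16 (adjusted p up to 0.0865), and with no filter on low counts (adjusted p = 0.0529).

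In the acute arm Cyp2c70 had 333, 501 and 634 CPM with vehicle, 369, 647 and 775 CPM with CORT, 501, 622 and 686 CPM with ENZA and 624, 824 and 883 CPM with CORT+ENZA. All CORT+ENZA mice except L6A lay above all mice of the other acute groups. ENZA alone gave a log2 fold change of 0.35 ± 0.15 (edgeR adjusted p = 0.279), ENZA added to CORT 0.36 ± 0.15 (0.902) and CORT added to ENZA 0.42 ± 0.15 (0.164), none of which passed. The ratio of acute CORT+ENZA to vehicle, described only, was 1.71 (95% interval 1.39 to 2.10).

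Cyp2c44, the arachidonic acid epoxygenase, went the other way from the cluster in the chronic arm. Its lowest, median and highest levels were 198, 278 and 391 CPM with vehicle, 120, 174 and 185 CPM with CORT and 185, 306 and 403 CPM with CORT+ENZA. All CORT mice lay below all mice of the other chronic groups, by a narrow margin to CORT+ENZA mouse 18. The CORT to vehicle ratio was 0.585 (95% interval 0.455 to 0.753). Cyp2c44 rose to 1.87 times its CORT level with ENZA added (log2 fold change 0.90 ± 0.19 SE, edgeR adjusted p = 0.00364), and CORT+ENZA mice had 1.09 times the vehicle level (0.851 to 1.41). In the acute arm its group means were 516 ± 90.4 CPM (SD) with vehicle, 481 ± 67.6 with CORT, 499 ± 95.7 with ENZA and 443 ± 44.8 with CORT+ENZA, all overlapping.

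Under chronic CORT, other Cyp2c genes did not share 1 pattern. Of 9 on the list, 7 could be tested. With chronic CORT 4 rose and 1 fell against vehicle, beside 18.3% of all genes called (median log2 fold change 0.59, against -0.01 over all genes). The risers were Cyp2c29 (0.59 ± 0.11 SE), Cyp2c37 (0.90 ± 0.25, named after its values were seen), Cyp2c38 (1.92 ± 0.23) and Cyp2c39 (2.30 ± 0.24), while Cyp2c55 fell by 1.34 ± 0.31 on the log2 scale. With ENZA added to chronic CORT 4 of 7 rose and 0 fell, with a median of 1.60, beside 11.8% of all genes called. Those that rose were Cyp2c29 by 2.06 ± 0.11, Cyp2c50 by 1.60 ± 0.22, Cyp2c54 by 1.90 ± 0.28 and Cyp2c55 by 5.58 ± 0.29 (edgeR adjusted p at most 0.00019). Cyp2c38 and Cyp2c39, which CORT had raised, had values of 0.32 ± 0.22 and 0.13 ± 0.21 and did not pass. Cyp2c40, Cyp2c68 and Cyp2c69 were thus called lower in a comparison in which 4 other Cyp2c genes were called higher. Cyp2c70 and Cyp2c44 were also called higher in it. In the acute arm, ENZA alone raised 3 of the 7, Cyp2c29 by 1.44 ± 0.14, Cyp2c50 by 0.60 ± 0.13 and Cyp2c55 by 2.55 ± 0.28, in the comparison in which none of the 4 cluster genes was called. Of all genes 1.31% were called there. The members and this list were chosen with earlier results of these data known, so these contrasts between them are no independent support.

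Among 24 genes known as female-biased in mouse liver, 12 could be tested in the chronic arm. With CORT 6 rose and 1 fell, beside 18.3% of all genes called, with a median log2 fold change of 2.54. Sult1e1, the estrogen sulfotransferase, rose by 7.34 ± 0.72 (SE), and Cyp17a1, a steroid hydroxylase and lyase, by 3.86 ± 0.27. The fall was in Abcd2, a peroxisomal transporter, by 1.43 ± 0.37. With ENZA added to CORT 1 of the 12 rose and 1 fell (median -0.46), beside 11.8% of all genes called. Cyp17a1 fell by 0.81 ± 0.24 on the log2 scale (edgeR adjusted p = 0.0363) and Abcd2 rose by 1.26 ± 0.37 (0.0344), while Sult1e1 (0.64 ± 0.42, 0.354) did not pass. For Cyp2c40 the same comparison gave -3.66. With acute CORT the 14 tested there had a median of -1.26.

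Of 23 male-biased genes, 2 rose and 7 fell with chronic CORT (median -0.46), beside 18.3% of all genes called. With ENZA added 4 rose and 1 fell (median 0.17), beside 11.8% of all genes called. Selenbp2, a selenium-binding protein, fell by 1.87 ± 0.56 on the log2 scale with CORT and rose by 3.21 ± 0.58 with ENZA added. Among 13 genes of growth hormone signalling, 1 rose and 3 fell with chronic CORT (median -0.15), beside the same 18.3% of all genes. The growth hormone receptor Ghr fell by 0.48 ± 0.12, Stat5a by 0.44 ± 0.13 and Stat5b by 0.43 ± 0.10, and Hnf4a was the 1 that rose. With ENZA added only Hnf4a of the 13 was called, as lower. Bcl6, a repressor that opposes STAT5, had values of 0.20 ± 0.72 and -1.41 ± 0.74 in these comparisons and did not pass in either.

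Bile acid genes are the company of Cyp2c70. Of 18 on the list, 6 rose and 0 fell with chronic CORT (median 0.27), beside 18.3% of all genes called. With ENZA added 3 rose and 4 fell (median 0.11), beside 11.8% of all genes called. Akr1d1, a steroid reductase of bile acid synthesis, rose by 0.67 ± 0.11 (SE) with CORT and by 0.57 ± 0.11 more with ENZA added, as Cyp2c70 did in direction. Cyp39a1, an oxysterol hydroxylase, rose by 2.14 ± 0.17 and then fell by 0.82 ± 0.16. Cyp8b1, which makes cholic acid, had a log2 fold change of -1.59 ± 0.60 with chronic CORT (edgeR adjusted p = 0.0771) and fell by 2.98 ± 0.65 with ENZA added (0.00643). Cyp7a1, which opens the pathway, did not pass in either (1.00 ± 0.50 and 0.10 ± 0.49). Among 13 tested genes of arachidonate epoxygenation and P450 partners, the company of Cyp2c44, 2 rose and 1 fell with chronic CORT, and 3 rose and 1 fell with ENZA added. The same shares of all genes stand beside these small counts, and no list was tested as a set. Ephx1, an epoxide hydrolase, rose by 0.64 ± 0.21 and by 1.13 ± 0.21.

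The glucocorticoid receptor Nr3c1 fell by 0.27 ± 0.08 (SE) on the log2 scale with chronic CORT (edgeR adjusted p = 0.0297).

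**Figure D4:**
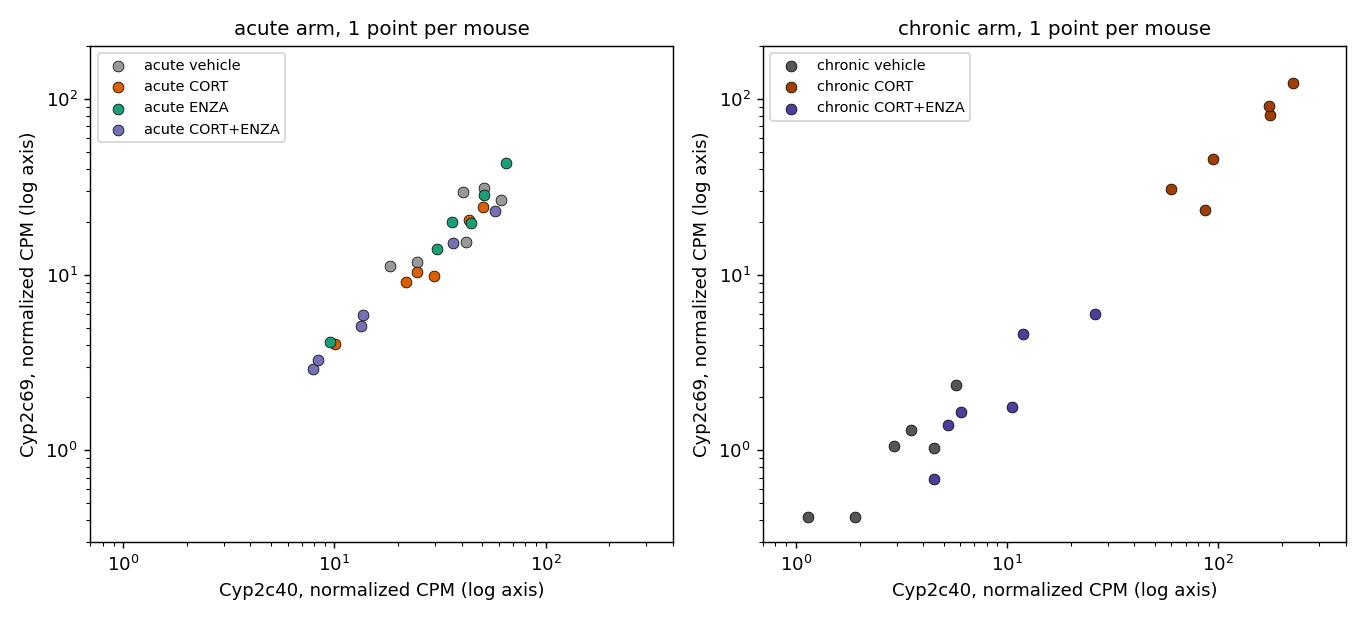
Normalized CPM of Cyp2c69 against Cyp2c40 on log axes, 1 point per mouse, acute arm on the left and chronic arm on the right, coloured by group. The mice lie along a rising line in both arms, and the 6 chronic CORT mice lie at the upper end, above 59 CPM of Cyp2c40.

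Within groups the same mice tended to be high for Cyp2c40 and Cyp2c69. Deviations of log2 CPM from the group means had a Pearson r of 0.972 over the 24 acute mice (Spearman rho 0.949) and 0.914 over the 18 chronic mice (0.899), and r stayed at 0.956 and 0.901 without the 2 mice farthest from the median of Cyp2c40. The adjusted permutation p was 7.5e-05 for all 4, over 30 relations, from a raw p of 1e-05, which is the smallest that 100000 permutations within groups can give. The relation held in each arm, which is also the split by kit. Shared reads were not separated from shared regulation in it. Cyp2c40 and Cyp2c68 had an r of 0.866 over acute mice and 0.565 over chronic mice, of which the second did not pass (adjusted permutation p = 0.0616, and r 0.476 without the 2 farthest mice). For Cyp2c40 and Cyp2c67 r was 0.393 and 0.133, and neither passed (adjusted permutation p = 0.153 and 0.738). Cyp2c70 and Cyp2c44 had an r of 0.353 and 0.064 with each other, which did not pass either. The counts of Cyp2c69 were 52.9% of those of Cyp2c40 in acute vehicle mice, 43.4% with CORT, 54.1% with ENZA and 40.1% with CORT+ENZA. In the chronic arm they were 33.0% with vehicle, 48.2% with CORT and 25.0% with CORT+ENZA.

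Of 12866 genes tested in both arms, the genes most like the cluster sum in these within-group deviations were ranked by the lower r of the arms, over 24 and 18 mice, and are given with no p because they were picked for their r. Igf1, the growth factor that liver secretes in response to growth hormone, ranked first with r of 0.703 and 0.812, followed by Ormdl2 (0.620 and 0.645), Ggact (0.668 and 0.617) and Gm12481 (0.610 and 0.698). The level of Igf1 was 523 ± 84.0 CPM (SD, n = 6) in chronic vehicle, 541 ± 102 in CORT and 604 ± 76.3 in CORT+ENZA mice, so its group means did not follow those of the cluster. For Cyp2c70 the first were C8b, a complement component (0.659 and 0.800), and Serpina3k, a protease inhibitor (0.646 and 0.805). For Cyp2c44 the first was Klkb1, which codes for plasma prekallikrein (0.786 and 0.893). For Cyp2c40 alone, a ranking added after its values were seen, Gstm2 (0.506 and 0.463) and Pltp (0.455 and 0.658) came first, and Prlr, the prolactin receptor, was sixth (0.435 and 0.701).

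Marker levels are given beside these results. The 4 lymphocyte markers that could be tested all fell with chronic CORT (median log2 fold change -3.22), and the 7 markers summed to 4.28 to 8.93 CPM in vehicle and 0.325 to 1.54 CPM in CORT mice. With chronic CORT 1 of 6 Kupffer cell markers and 1 of 5 stellate cell markers fell, and of 11 pericentral hepatocyte genes 1 rose and 2 fell, shares near the 18.3% called over all genes. With ENZA added 1 of 6 Kupffer cell markers and 1 of 11 pericentral genes rose, beside 11.8% of all genes called. The 7 hepatocyte markers summed to 91084 to 124758 CPM in chronic CORT and 61118 to 81412 CPM in chronic CORT+ENZA mice, where Alb (-0.65 ± 0.13 SE) and Ttr (-1.01 ± 0.10) fell and 0 of 7 rose. The part of these shifts in the values of the Cyp2c genes was not tested.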

How the data were processed

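Livers of 42 male mice were measured as RNA enriched for mRNA, 6 mice in each of 4 acute and 3 chronic groups taken from the labels. The authors deposited a table of raw gene counts for each arm, made with STAR 2.7.3a and HTSeq 0.12.4 on build mm10, per the submitters' processing notes. Which annotation and which HTSeq strand option they used is not stated in the sources at hand, so overlapping and antisense genes are uncertain. Summary lines (unassigned, ambiguous or multiply aligned pairs) entered no library size or test. They held 21.6 to 28.4% of acute and 30.7 to 37.1% of chronic read pairs.

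Counts were filtered (filterByExpr, minimum count 10, minimum total 15), scaled by TMM and fitted with edgeR 4.0.16 (R 4.3.3) quasi-likelihood tests over all groups of an arm, with Benjamini-Hochberg adjustment over all genes and a threshold of 0.05. The cluster sum replaced the rows of its 4 genes. The fit was tested on simulated data. Shares and correlations used permutation tests (SciPy 1.17.1). DESeq2 1.42.0, other scalings, other filters and libraries left out were alternatives. The labels call the samples separate mice, so n counts mice, and the labels give no batch within an arm. Transcripts came from GENCODE M21 and promoters from RefSeq. Named genes were the members, up to 4 called genes with the smallest p per list and comparison, 10 preset hormone and bile acid genes, and the 8 most alike. Members and lists were chosen with earlier results of these data known.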

Additional observations from a re-analysis of the deposited data

Results flagged for a closer look

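Of 49 sets of 6 mice examined for a mouse far from the others, 3 stood out, where chance alone gives about 1 in 20. Cyp2c40 in chronic CORT+ENZA mouse 17 was at 26.0 CPM, with the next mouse at 11.9, a gap of 0.654 of the range. Cyp2c67 in acute ENZA mouse L29A was at 95.9 CPM, below the next at 130 CPM, a gap of 0.682. Cyp2c70 in acute CORT+ENZA mouse L6A was at 624 CPM, below the next at 822 CPM, a gap of 0.763. Its neighbours by number, vehicle L1A and CORT L2A, were also lowest in their groups (333 and 369 CPM). In the ENZA group only L23A, at 501 CPM, was lower than the neighbour L5A, at 516 CPM. The critical value for 6 mice is 0.625. Without mouse 17 the call of Cyp2c40 for ENZA added to chronic CORT stood, and that of the cluster sum was lost (log2 fold change -0.52, edgeR adjusted p = 0.055).

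The effect of ENZA added to CORT differed between the arms for 3 genes by the edgeR test of the difference itself. The log2 difference, chronic minus acute, was -3.31 for Cyp2c40, -4.13 for Cyp2c69 and 0.99 for Cyp2c44. Kit and duration cannot be told apart in it, and it holds the CORT mice on which the genes were chosen.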

How the results depend on the processing

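Under DESeq2, other size factors, other filters, fits of the compared groups only and the 2 pairs of libraries left out, the tests of the sum and the shares kept their direction and side of the threshold wherever they were run. Among single genes, the acute ENZA against vehicle value, close to 0, turned positive for Cyp2c40 with no low-count filter (0.0027) and without L19A and L36A (0.080), and without these also for Cyp2c68 (0.037) and Cyp2c44 (0.0047); Cyp2c70 was called for acute CORT+ENZA against ENZA in the fit of these groups only (adjusted p = 0.0497). With each library left out, the chronic sum ranged from -0.59 to -0.44 for ENZA added to CORT. The joint share of Cyp2c40 and Cyp2c69 ranged from -0.705 to 2.56 points for acute ENZA against vehicle and from -8.58 to -5.32 points for acute CORT+ENZA against ENZA, where the unadjusted exact permutation p was 0.0195 without L23A and 0.0238 without L36A. Signs also turned for acute ENZA against vehicle in Cyp2c40 (-0.20 to 0.20), Cyp2c68 (-0.12 to 0.075), Cyp2c69 (-0.28 to 0.26) and Cyp2c44 (-0.14 to 0.020), for Cyp2c67 with ENZA added to CORT in the acute arm (-0.13 to 0.071), in the chronic arm (-0.048 to 0.13) and between arms (-0.058 to 0.15), and for the shares of Cyp2c40 (-0.235 to 1.64) and Cyp2c69 (-0.470 to 0.921) with acute ENZA and of Cyp2c68 with acute CORT+ENZA against CORT (-2.45 to 0.813). The causes were not tested.

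Counts of all genes called moved more. DESeq2 called 432 genes for acute CORT against vehicle (edgeR 222), 388 for ENZA against vehicle (180), 59 for CORT+ENZA against CORT (24), 461 for CORT+ENZA against ENZA (248), 584 for CORT+ENZA against vehicle (339) and 319 for the added ENZA effect between arms (179). Fits of the compared groups only called 96, 94 and 203 genes for acute CORT, ENZA and CORT+ENZA against vehicle. With no filter 90 were called for acute ENZA against vehicle, 156 for acute CORT+ENZA against ENZA and 509 for the CORT effect between arms (873), which was 1373 without chronic 11 and 18. Without L19A and L36A 39 were called for acute CORT+ENZA against CORT. With 1 library left out, the acute counts ranged from 135 to 319 for CORT against vehicle (over 1.5 times lower without L8A, L25A, L26A or L32A), 77 to 159 for ENZA against vehicle (L1A, L11A, L25A, L29A, L35A), 14 to 22 for CORT+ENZA against CORT (L18A, L20A, L26A, L30A), 118 to 247 for CORT+ENZA against ENZA (L5A, L6A, L12A, L17A, L29A, L35A) and 208 to 414 for CORT+ENZA against vehicle (L1A, L24A, L25A), so the acute shares of genes called are not fixed values. No paired analysis was run because no replicate number occurs in more than 1 group and the labels tie no mice of different groups together. The acute numbers repeat the same order of groups, and the chronic numbers run in stretches of mice of the same group. A block by number entered neither the fits nor the correlations, which treat the mice of a group as exchangeable. Depth limits Cyp2c69 in chronic vehicle mice, at 7 to 35 read pairs.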
